A study of Rattus norvegicus with 2 samples.

Results

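Nuclear hormone receptors are transcription factors that bind DNA through a pair of zinc fingers and carry a pocket for small lipid-soluble ligands such as steroids, thyroid hormone, retinoids, oxysterols and fatty acids. Many bind repeats of the hexamer AGGTCA, often as partners of a retinoid X receptor, and recruit coactivators or corepressors according to whether ligand is bound. Members without a known natural ligand are called orphan receptors, and several of these act in neural development and in the circadian clock. The genes described here were chosen by symbol: those of the receptor families Nr0 to Nr6, Rar, Rxr, Ppar, Thr, Esr, Esrr, Ror and Vdr, without Nr4a1, Nr4a2, Nr4a3 and Rarb. This gave 37 of the 18166 named genes on the arrays. Nr1d2, Nr2e1 and Nr2e3 were not analysed here.

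RNA of a SMiN culture and of an undifferentiated C6 glioma culture was hybridized to 1 array each. SMiNs were C6 glioma cells kept for 35 days with 20 μM CHIR99021, an inhibitor of GSK3, and 100 μM forskolin, which raises cAMP through adenylyl cyclase. C6 glioma is a rat glial tumor cell line, and the reference culture was the same line. It was taken to be in serum-containing medium, as in its label and in the paper's routine culture of these cells. The paper does not state the medium of the culture used for this array. The paper's methods place SMiNs on Matrigel in a serum-free medium with N2 and B27 supplements, BDNF and GDNF, whereas the sample labels give the small molecules and 10% serum for both samples, and the paper's account was followed. Such supplements hold hormones of their own, so the small molecules, the medium with its hormones, the coating and the time in culture cannot be told apart. With 1 array per condition no spread between replicates exists, and every difference below describes this pair of arrays and carries no p-value.

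Values are log2 signals as deposited, and differences are SMiN minus C6 glioma. A level was taken as detectable at or above a floor, the 95th percentile of 1360 probe sets for odorant and pheromone receptors, which was 4.89 on the SMiN array and 4.79 on the C6 glioma array. A fold that rests on a signal under the floor was computed against the floor and is written "at least". The cell type markers went in mixed directions. Of 6 neuron markers, 4 reached the floor on the SMiN array and 4 on the C6 glioma array, and Syt1 and Stmn2 were under it on both. Tubb3 was the 1 neuron marker at least 2-fold higher, with 6.44 in SMiNs and 5.28 in C6 glioma. Of 5 oligodendrocyte precursor markers, 3 reached it on the SMiN array and 5 on the C6 glioma array, and 3 of them were at least 2-fold lower. These were Pdgfra, Cspg4 and Olig1, with differences of -4.05, -3.11 and -1.68. Of 5 microglia markers, 0 reached the floor on either array. Of 5 measured astrocyte markers, 3 reached it on the SMiN array and 2 on the C6 glioma array. Slc1a2 was higher, with 7.41 in SMiNs and 4.37, under the floor, in C6 glioma. S100b was higher by less than 2-fold, with 10.06 in SMiNs and 9.28 in C6 glioma. Gfap was lower, with 5.40 in SMiNs and 5.97 in C6 glioma, and Aqp4 and Slc1a3 were under the floor on both arrays. Of 5 fibroblast markers, 3 reached it on each array, and Col1a1 and Pdgfrb were at least 2-fold lower, with differences of -2.25 and -2.43. Of 3 measured endothelium markers, 1 reached it on each array, Cldn5 only on the SMiN array and Tek only on the C6 glioma array. Whether a change in the mix of cells moved any receptor was not tested. Fewer cells of a type and less RNA per cell cannot be told apart in such bulk samples.

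Of the 37 receptor genes, 1 was at least 2-fold higher in SMiNs, where 4.27% of all named genes were, and 2 were at least 2-fold lower, where 8.12% of all named genes were. Detectable signal on at least 1 array was found for 24 receptors, and the other 13 lay under the floor on both. Among the 24, the 3 genes past 2-fold made up 4.17% higher and 8.33% lower, beside 5.75% and 12.9% of the 11306 named genes that reached the floor. At a 1.5-fold threshold, 3 of the 24 were higher (12.5%) and 7 were lower (29.2%), beside 13% and 26.1% of those genes. These shares lie near those of genes at large, in both directions. Their median difference was -0.11, beside -0.08 for all genes that reached the floor. In the deposited values 13 of the 24 were lower, 9 were higher and 2 had the same value on both arrays, and 54.1% of all genes that reached the floor were lower. Centring each array on its median raised these shares to 70.8% of the receptors and 69.4% of all such genes, and under quantile normalization 12 receptors were lower and 12 higher, beside 53.0% of all such genes lower.

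**Figure D1:**
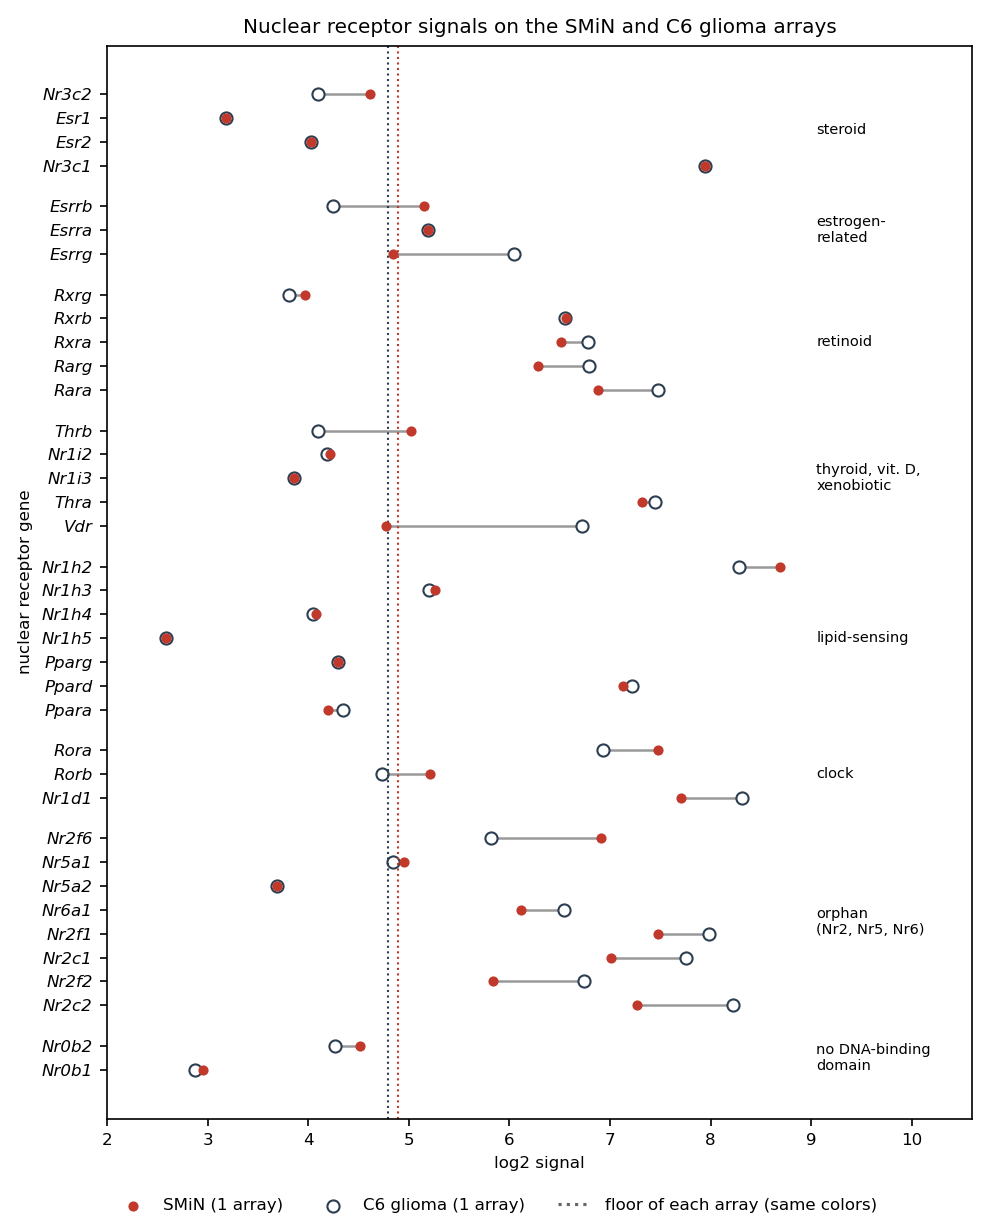
Log2 signal of the 37 nuclear receptor genes on the SMiN array (filled circles) and the C6 glioma array (open circles), grouped by family, with the floor of each array as a dotted line. Vdr shows the longest shift to the left, with 4.77 in SMiNs and 6.72 in C6 glioma, and 13 genes lie left of both lines.

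Vdr, Esrrg and Nr2f6 were the 3 genes past 2-fold. Vdr, the vitamin D receptor, had a log2 signal of 4.77 in SMiNs, under the floor, and 6.72 in C6 glioma. It was at least 3.55-fold lower in SMiNs, and 2.41% of the genes that reached the floor had a difference as low or lower. Cyp24a1, which degrades active vitamin D and is a classic target of this receptor, was at 3.79 on both arrays, under the floor. Esrrg, an orphan receptor that activates genes of mitochondrial energy production, had 4.85 in SMiNs, also under the floor, and 6.05 in C6 glioma. It was at least 2.23-fold lower, and 9.13% of the genes that reached the floor were as low or lower. Both receptors were thus detectable only on the C6 glioma array. Nr2f6, an orphan receptor of the COUP-TF group that mostly represses its targets, had 6.91 in SMiNs and 5.82 in C6 glioma. It was 2.13-fold higher, with both signals above the floor, and 4.84% of the genes that reached the floor were as high or higher. With a stricter floor at the 99th percentile of the odorant and pheromone receptors, 6.05 on the SMiN array and 5.64 on the C6 glioma array, Vdr was at least 1.6-fold lower and Esrrg at least 1.0-fold lower, so that 0 receptors were at least 2-fold lower. Esrrb, Thrb and Rorb, which reached the first floor only on the SMiN array, lay under the stricter floor on both arrays.

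**Figure D2:**
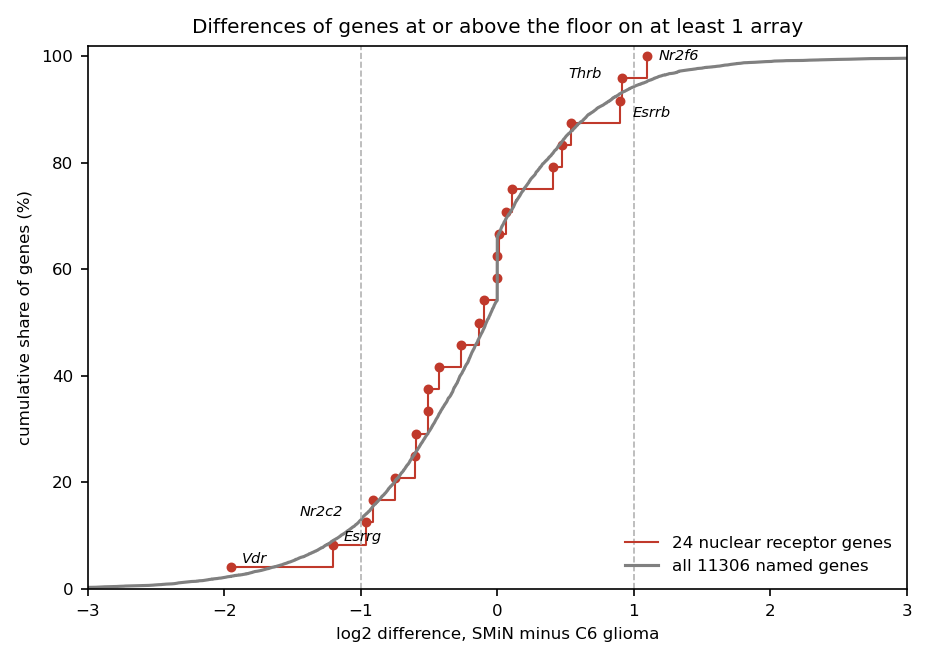
Cumulative share of genes, in percent, against the log2 difference, SMiN minus C6 glioma, for the 24 nuclear receptor genes (points and steps) and the 11306 named genes that reached the floor on at least 1 array (smooth line), with dashed lines at 2-fold. The receptor steps run close to the line of all genes, with medians of -0.11 and -0.08, and Vdr (-1.95) lies at the low end of the receptors.

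The promoters of these 3 genes are shown with that of Nr6a1, the only member whose promoter held the full palindrome that CREB binds in cAMP-responsive genes. RefSeq windows of 300 bases, 250 before a transcription start and 50 from it onward, were found for 33 of the 37 receptors, 41 windows in all, since 6 receptors had several starts. For Esrrg, which had 4, the window with a nuclear receptor hexamer is printed. Sequences are of build GRCr8, 5′ to 3′ on the strand of the gene, and capitals mark the matches to the motifs described after them.
Vdr, chr7:130916708-130917007, minus strand: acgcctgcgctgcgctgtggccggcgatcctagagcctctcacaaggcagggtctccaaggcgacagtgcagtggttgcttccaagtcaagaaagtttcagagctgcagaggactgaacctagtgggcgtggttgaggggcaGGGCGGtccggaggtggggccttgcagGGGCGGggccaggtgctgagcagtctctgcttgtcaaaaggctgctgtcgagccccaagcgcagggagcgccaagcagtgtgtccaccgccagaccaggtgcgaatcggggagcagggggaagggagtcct
Esrrg, chr13:101755510-101755809, plus strand: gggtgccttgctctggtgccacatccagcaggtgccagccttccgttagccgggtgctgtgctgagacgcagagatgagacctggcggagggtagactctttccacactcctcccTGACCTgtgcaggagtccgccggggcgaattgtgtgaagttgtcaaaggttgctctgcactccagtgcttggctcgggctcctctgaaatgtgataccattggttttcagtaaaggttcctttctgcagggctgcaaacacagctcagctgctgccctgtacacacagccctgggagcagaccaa
Nr2f6, chr16:18087400-18087699, minus strand: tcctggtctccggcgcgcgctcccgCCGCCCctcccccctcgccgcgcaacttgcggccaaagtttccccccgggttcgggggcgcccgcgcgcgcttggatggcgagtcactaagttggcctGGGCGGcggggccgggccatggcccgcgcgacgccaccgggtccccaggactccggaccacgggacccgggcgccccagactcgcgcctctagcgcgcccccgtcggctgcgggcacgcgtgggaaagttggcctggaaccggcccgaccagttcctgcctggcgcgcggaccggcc
Nr6a1, chr3:43092788-43093087, minus strand: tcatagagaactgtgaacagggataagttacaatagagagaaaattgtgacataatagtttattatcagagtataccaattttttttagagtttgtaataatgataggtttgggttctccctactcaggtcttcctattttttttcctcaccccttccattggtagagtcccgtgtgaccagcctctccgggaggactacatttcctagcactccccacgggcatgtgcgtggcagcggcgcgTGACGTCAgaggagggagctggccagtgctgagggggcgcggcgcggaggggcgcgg

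Letters were searched on both strands. The full cAMP response element TGACGTCA was in 1 of the 41 windows, that of Nr6a1, where it began 7 bases before the start, and in 1.83% of all 33469 windows of the same length. Its core TGACG, which the palindrome holds on each strand, was in 7 of 41 (17.1%), beside 21.2% of all windows. The TCF/LEF motif CTTTGAT, read by the partners of β-catenin that GSK3 inhibition stabilizes, was in 0 of 41, beside 3.63%. The nuclear receptor hexamer AGGTCA was in 4 of 41 windows (9.76%), beside 16.2%, and in the Esrrg window it lies on the opposite strand, 135 bases before the start. The E-box CACGTG, bound by the clock factors CLOCK and BMAL1, was in 4 of 41 (9.76%), beside 6.42%. GC boxes, GGGCGG, were in 20 of 41 (48.8%), beside 33.1%, and both the Vdr and the Nr2f6 windows held 2. These are matches of letters, not measured binding.

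The steroid receptors bind adrenal and gonadal hormones, and some of them move to the nucleus when bound. Of the 4 among the 37 genes, only Nr3c1, the glucocorticoid receptor, was detectable. It had a log2 signal of 7.95 on the SMiN array and 7.95 on the C6 glioma array. The deposited values were identical. This was so for 8 of the 37 receptors (21.6%) and 22.7% of all named genes, and for 12.1% of genes that reached the floor, so an identical value is not read as an unchanged transcript. Nr3c2, the mineralocorticoid receptor, had 4.61 in SMiNs and 4.10 in C6 glioma, and the estrogen receptors Esr1 and Esr2 were at 3.18 and 4.03 on both arrays, all under the floor.

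Among the estrogen-related receptors, orphan relatives of the estrogen receptors, Esrrb had 5.15 in SMiNs and 4.25 in C6 glioma. Esrrb, which helps to maintain pluripotency in mouse embryonic stem cells, was therefore detectable only on the SMiN array, at least 1.28-fold higher. Against the stricter floor it was not detectable on either array. Esrra, a regulator of oxidative metabolism, was at 5.19 on both. The 3 paralogs of this family thus gave 1 higher, 1 lower and 1 identical value.

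The retinoid receptors comprise the retinoic acid receptors and the retinoid X receptors, the shared partners of many other members. Rara had a log2 signal of 6.88 in SMiNs and 7.47 in C6 glioma, 1.51-fold lower. Rarg had 6.29 in SMiNs and 6.79 in C6 glioma, 1.42-fold lower. Rxra had 6.52 and Rxrb 6.56 in SMiNs, against 6.78 and 6.55 in C6 glioma. Rxrg was under the floor on both arrays, with 3.97 in SMiNs and 3.81 in C6 glioma. The median difference of the 4 detectable members was -0.39, and none of them reached 2-fold. Under quantile normalization the differences were -0.37 for Rara, -0.32 for Rarg, -0.06 for Rxra and 0.20 for Rxrb.

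Thra and Thrb encode the thyroid hormone receptors α and β. Thra had a log2 signal of 7.32 in SMiNs and 7.45 in C6 glioma, a difference of -0.13 that became 0.09 under quantile normalization. Thrb had 5.02 in SMiNs and 4.10 in C6 glioma. It was detectable only on the SMiN array, at least 1.17-fold higher against the floor and 0.92 higher on the log2 scale in the deposited values. The xenobiotic receptors Nr1i2 (PXR) and Nr1i3 (CAR), which control drug-metabolizing enzymes in liver, lay under the floor with 4.21 and 3.86 in SMiNs, against 4.19 and 3.86 in C6 glioma.

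The lipid-sensing receptors respond to oxysterols, bile acids and fatty acids. Nr1h2, which encodes the liver X receptor LXRβ, had a log2 signal of 8.69 in SMiNs and 8.28 in C6 glioma, 1.32-fold higher. Its paralog Nr1h3 (LXRα) had 5.26 in SMiNs and 5.20 in C6 glioma. Ppard, the most widely expressed of the peroxisome proliferator-activated receptors, had 7.13 in SMiNs and 7.22 in C6 glioma, a difference of -0.09 that became 0.14 under quantile normalization. Its other probe set lay under the floor, with 4.70 in SMiNs and 4.69 in C6 glioma. Ppara and Pparg, the regulators of fatty acid oxidation and of fat cell formation, were under the floor with 4.20 and 4.30 in SMiNs, against 4.35 and 4.30 in C6 glioma. The bile acid receptor Nr1h4 (FXR) and its paralog Nr1h5 were also under it, with 4.08 and 2.59 in SMiNs, against 4.05 and 2.59 in C6 glioma. Detectable lipid sensors were therefore LXRβ, LXRα and PPARδ on both arrays.

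The clock receptors compete for the same DNA elements, at which RORs activate and REV-ERBs repress. Rora had a log2 signal of 7.47 in SMiNs and 6.93 in C6 glioma, 1.45-fold higher. Rorb had 5.22 in SMiNs and 4.74 in C6 glioma, under the floor, and was at least 1.34-fold higher. Nr1d1, which encodes REV-ERBα, had 7.70 in SMiNs and 8.31 in C6 glioma, 1.52-fold lower. The RORs thus lay on the opposite side to Nr1d1, each by less than 2-fold. In RefSeq, Nr1d1 and Thra lie on opposite strands and overlap, and whether probes fall in the overlap was not analysed here.

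The orphan receptors of the Nr2, Nr5 and Nr6 subfamilies included 7 detectable genes, of which 5 were lower and 2 higher. The median difference of the 7 was -0.50 in the deposited values. Under quantile normalization the 5 lower genes ranged from -0.78 for Nr2f2 to -0.26 for Nr6a1, and the 2 higher genes stayed higher. Nr2c2 (TR4) had a log2 signal of 7.27 in SMiNs and 8.23 in C6 glioma, 1.94-fold lower, and it passed 2-fold when each array was centred on its median. Its partner in heterodimers, Nr2c1 (TR2), had 7.01 in SMiNs and 7.76 in C6 glioma, 1.68-fold lower. Nr2c1 and Nr2c2 were thus both lower, by under 2-fold in the deposited values. Nr2f2 (COUP-TFII), a factor of vein identity and of interneuron migration, had 5.84 in SMiNs and 6.74 in C6 glioma, 1.88-fold lower. Nr2f1 (COUP-TFI), which patterns the cerebral cortex, had 7.48 in SMiNs and 7.98 in C6 glioma, 1.42-fold lower. These COUP-TF genes lay on the opposite side to their relative Nr2f6. Nr6a1 (GCNF), which silences pluripotency genes in the mouse embryo, had 6.12 in SMiNs and 6.55 in C6 glioma, 1.35-fold lower. Nr5a1 (SF-1), a regulator of steroid synthesis, was close to the floor with 4.95 in SMiNs and 4.85 in C6 glioma, and Nr5a2 was under it at 3.69 on both. The receptors that lack a DNA-binding domain and act as corepressors, Nr0b1 (DAX-1) and Nr0b2 (SHP), were under the floor with 2.95 and 4.52 in SMiNs, against 2.87 and 4.27 in C6 glioma.

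Coregulators, the proteins through which these receptors act on chromatin, mostly had lower signals in SMiNs. Of 26 measured, 25 reached the floor. Of these, 5 were at least 2-fold lower and 0 at least 2-fold higher, beside 12.9% and 5.75% of all named genes that reached the floor. Under quantile normalization 4 were at least 2-fold lower. Among the 25 that reached the floor, 22 were lower and 2 higher, with a median difference of -0.69, where 54.1% of all genes that reached the floor were lower. Under quantile normalization 19 of the 25 were lower and 6 higher, with a median of -0.49. The arginine methyltransferase Carm1 had a log2 signal of 7.09 in SMiNs and 8.41 in C6 glioma, 2.51-fold lower. Med1, the Mediator subunit that contacts ligand-bound receptors, had 7.28 in SMiNs and 8.61 in C6 glioma, 2.51-fold lower. The coactivator Ncoa6 had 6.18 in SMiNs and 7.49 in C6 glioma, 2.47-fold lower. The corepressor Ncor1 had 7.19 in SMiNs and 8.37 in C6 glioma, 2.26-fold lower, and Tbl1xr1, a subunit of its complex, had 7.31 in SMiNs and 8.58 in C6 glioma, 2.41-fold lower. Lower members thus included coactivators and corepressors alike.

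**Figure D3:**
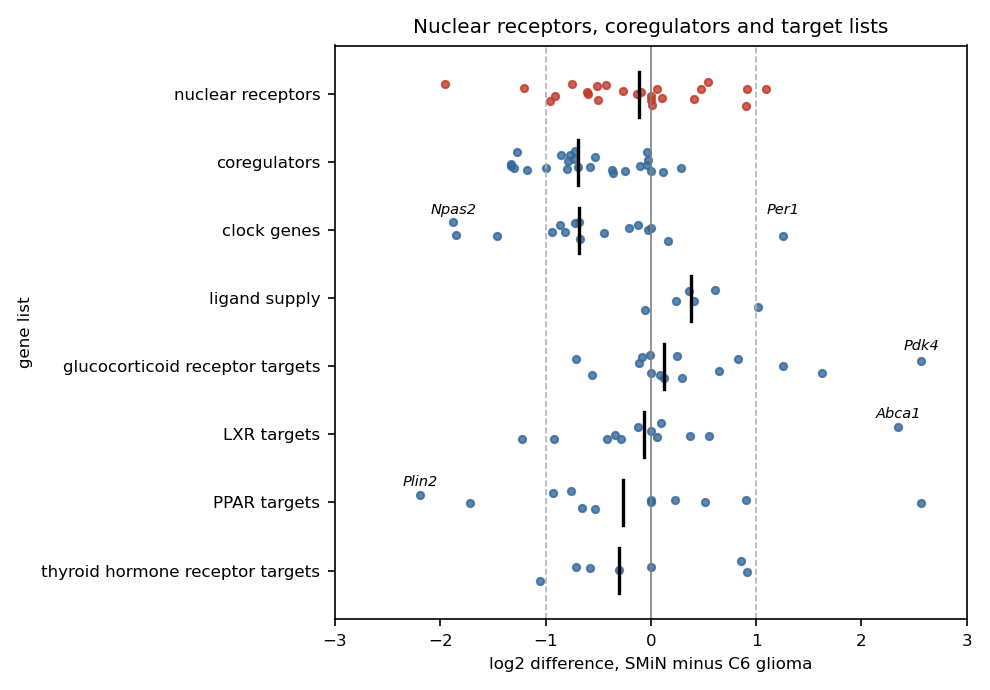
Log2 difference, SMiN minus C6 glioma, of each detectable gene in the nuclear receptor set and in 7 related gene lists, with black bars at the medians, dashed lines at 2-fold and points spread vertically for legibility. Coregulators and clock genes have medians of -0.69 and -0.68, and the receptors have a median of -0.11.

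Clock genes were also mostly lower. Of 16 measured, all of which reached the floor, 3 were at least 2-fold lower and 1 was at least 2-fold higher, beside 12.9% and 5.75% of all genes that reached the floor, which is near these counts. By direction alone 13 of the 16 were lower, or 11 under quantile normalization, where 54.1% of all genes that reached the floor were lower in the deposited values and 53.0% under quantile normalization. The median difference was -0.68 (-0.49 under quantile normalization). Npas2, a CLOCK paralog activated by RORs and repressed by REV-ERBs, had 5.80 in SMiNs and 7.68 in C6 glioma, 3.67-fold lower. Ciart, a repressor within the clock, had 5.61 in SMiNs and 7.46 in C6 glioma, 3.61-fold lower. Per2 had 4.64 in SMiNs, under the floor, and 6.10 in C6 glioma, at least 2.32-fold lower. Per1, a repressor of the same family that cAMP and glucocorticoids induce, had 7.44 in SMiNs and 6.18 in C6 glioma, 2.39-fold higher. Bmal1, the main target that RORs and REV-ERBs share, had 7.46 in SMiNs and 8.14 in C6 glioma, a difference of -0.68.

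Genes of ligand supply were mostly undetectable, with 6 of 16 measured genes at the floor or above it on at least 1 array. Hsd11b1, which regenerates active glucocorticoid from its inert form, was the only member past 2-fold, with 6.94 in SMiNs and 5.92 in C6 glioma, 2.02-fold higher. With each array centred on its median it was under 2-fold. Of the 16, 1 was thus at least 2-fold higher and 0 at least 2-fold lower, beside 4.27% and 8.12% of all named genes. Among named genes that reached the floor these shares were 5.75% and 12.9%. The deiodinases Dio1, Dio2 and Dio3, which activate or degrade thyroid hormone, were under the floor on both arrays.

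Of 16 glucocorticoid receptor targets measured, 15 reached the floor. Of these, 3 were at least 2-fold higher and 0 at least 2-fold lower, beside 5.75% and 12.9% of all named genes that reached the floor. Pdk4, a kinase that restrains glucose oxidation and also a PPAR target, had 7.69 in SMiNs and 5.13 in C6 glioma, 5.93-fold higher. Ddit4, an inhibitor of mTOR signaling, had 8.62 in SMiNs and 7.0 in C6 glioma, 3.08-fold higher, and Per1 was the third. Fkbp5 and Tsc22d3, targets widely used as readouts of this receptor, had 6.90 and 6.72 in SMiNs, against 7.0 and 6.6 in C6 glioma, so that members of the list did not move together.

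The target lists of the lipid sensors and of thyroid hormone held members on both sides. Their few members past 2-fold lie near the 4.27% higher and 8.12% lower of all named genes. Among named genes that reached the floor these shares were 5.75% and 12.9%. Of 13 LXR targets, 1 was at least 2-fold higher, Abca1, a cholesterol exporter with 7.91 in SMiNs and 5.56 in C6 glioma, 5.10-fold higher. The related exporter Abcg1 had 7.38 in SMiNs and 7.01 in C6 glioma, and Srebf1 had 5.07 in SMiNs and 5.19 in C6 glioma. Abcg4 was the 1 member past 2-fold lower in the deposited values, with 4.50 in SMiNs, under the floor, and 5.72 in C6 glioma, but against the floor it was only at least 1.77-fold lower, so that 0 LXR targets were then at least 2-fold lower. Of 17 PPAR targets, 1 was at least 2-fold higher, Pdk4, and 2 were at least 2-fold lower. Plin2, a coat protein of lipid droplets, had 7.18 in SMiNs and 9.37 in C6 glioma, 4.56-fold lower. Acsl1, which activates long-chain fatty acids, had 6.61 in SMiNs and 8.32 in C6 glioma, 3.29-fold lower. Of 11 thyroid hormone receptor targets, 0 passed 2-fold upward and 1 passed it downward, Gpd2, a mitochondrial glycerol-3-phosphate dehydrogenase with 6.37 in SMiNs and 7.42 in C6 glioma, 2.07-fold lower. Under quantile normalization 0 of these targets were at least 2-fold lower. Klf9, which glucocorticoids and thyroid hormone both induce, had 7.06 in SMiNs and 7.76 in C6 glioma, a difference of -0.71.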

How the data were processed

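Total RNA was labeled by the authors with a whole-transcript kit, hybridized to Affymetrix rat arrays, 1 array per condition, and scanned. The authors deposited a log2 signal for each of 36685 probe sets. How signals were summarized and normalized, and the genome build, is not given in the sources used here, and the log base was taken from the range of the values. The number of arrays limits the precision, and no statistical test between the arrays was run.

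Probe sets were named from the platform annotation. Of these, 18511 had 1 symbol, 575 had several and 17599 were unnamed here. The probe set with the highest mean over both arrays stood for a gene. The Entrez numbers of all 37 receptors matched RefSeq (GRCr8) under the same symbol. Named were the 24 receptors that reached the floor, and of each other list up to 5 members each way past 2-fold whose brighter signal reached the floor. The 13 other receptors, Bmal1, Cyp24a1, Abcg1, Srebf1, Fkbp5, Tsc22d3, Klf9 and the deiodinases fall outside that rule and were named after their values were seen. The members and lists were chosen with earlier results of these data known. Promoters come from RefSeq. Alternatives were median centring, quantile normalization, the filter at the floor, low values raised to the floor, averaging the probe sets of a gene, a 1.5-fold threshold, a floor at the 99th percentile and leaving out genes of equal value. The code that makes the calls was run on simulated arrays with large known shifts, little noise and shifted genes far above the floor. That run checks the code only and does not measure errors of real calls near the floor. Python 3.11.15, numpy 2.4.6, pandas 2.3.3 and matplotlib 3.10.9 were used.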

Additional observations from a re-analysis of the deposited data

How the results depend on the processing

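The counts of 1 receptor at least 2-fold higher and 2 at least 2-fold lower were the same under quantile normalization, the filter at the floor, low values raised to the floor and the average of a gene's probe sets. Median centring gave 1 and 3, with Nr2c2 past 2-fold. At 1.5-fold they were 3 and 7. With the floor at the 99th percentile, 0 receptors were at least 2-fold lower. The median difference of the 37 receptors was 0 in the deposited values, -0.11 over those that reached the floor, 0.10 with values set to the floor and 0.40 with the 99th percentile floor, the last 2 being the gap between the floors of the arrays. Over 108 genes of the 7 other lists pooled, 5 were at least 2-fold higher and 12 at least 2-fold lower, beside 4.27% and 8.12% of all named genes. The counts were the same over the 87 that reached the floor, beside 5.75% and 12.9% of all named genes that did. At 1.5-fold the counts over the 108 were 11 and 31. Of the named genes that reached the floor, 13% and 26.1% passed 1.5-fold. The 108 include genes that did not reach the floor, so these counts and shares are not of like sets. The median of the 108 was -0.04, or -0.20 over those that reached the floor. Median centring turned the sign of 4 receptors and quantile normalization that of 5, all with deposited differences of at most 0.13 in size. Setting values to the floor turned 1, Ppara, which lay under it on both arrays. The labels give no replicates, and depth here means signal over background: 13 of the 37 receptors could not be compared.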

Other observations

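Of 4 superfamily members looked up outside the symbols used here, 3 were measured. Hnf4a and Hnf4g, hepatocyte nuclear factors of liver and gut, had log2 signals of 4.38 and 3.08 in SMiNs, against 4.15 and 2.77 in C6 glioma. Pgr, the progesterone receptor, had 3.62 in SMiNs and 3.28 in C6 glioma. All 3 lay under the floor on both arrays.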
